A study of Drosophila melanogaster with 4 samples.

Results

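The transcripts described here are those of 10 genes of the bone morphogenetic protein (BMP) pathway that acts in the germline stem cell niche of the Drosophila ovary. They were picked by gene name, namely the ligand genes dpp and gbb, the co-receptor gene dally, the receptor genes tkv, sax, put and wit, the signal transducer genes Mad and Med, and the inhibitor gene Dad. Each name matched 1 of 17475 genes in the deposited table. RNA was sequenced from ovaries of 7-day-old adult Drosophila melanogaster kept at 25 °C, in 2 libraries of the mutant genotype wh7 and in 2 control libraries of wild-type genotype. Both groups have the strain w1118, whose flies carry a white eye mutation. wh7 is an allele of wuho, whose protein is the WD-repeat partner in a tRNA guanosine methyltransferase. The labels state neither how many animals were pooled nor that the 2 libraries of a genotype came from separate flies. The p-values therefore reflect differences between these 4 libraries alone, which could be technical.

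In this pathway a secreted BMP dimer binds a complex of type I and type II receptor kinases at the cell surface. The type I receptor phosphorylates the SMAD protein Mad, which joins the co-SMAD Medea (Med) and enters the nucleus to switch target genes on or off. In the germarium, Dpp and Gbb from somatic niche cells reach the germline stem cells, where the SMADs repress the differentiation gene bam, and cell-surface glypicans such as Dally help to hold the ligand near the niche.

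All values are FPKM, fragment numbers scaled to the length of the transcript and to the size of the library, so levels of different genes can be set side by side. The description fields of the samples name another experiment, RNA interference against tkv, which conflicts with the genotype fields, so the levels of both genes were examined first. wuho, the mutated gene, was at 0.832 and 0.646 FPKM in wh7 and at 24.7 and 25.4 FPKM in controls. tkv was at 57.0 and 55.7 FPKM in wh7 and at 48.0 and 49.5 FPKM in controls, and was thus not lower in the libraries labelled wh7. The summed FPKM of the libraries were 723859 and 753290 in wh7 and 682413 and 757801 in controls. All 14 germline markers checked, among them osk, were expressed highly enough to be tested, with sums of 2371 and 2571 FPKM in wh7 and of 2736 and 2705 FPKM in controls. Total reads were not used here, as the files hold FPKM alone. The steps between low values put 1 read in a transcript of 1 kb at about 0.0531 to 0.0561 FPKM.

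The ligand genes dpp and gbb and the co-receptor gene dally were each more than 4-fold higher in wh7 ovaries, whereas the receptor and transducer genes differed by less than 1.5-fold. Of the 10 genes 3 rose and 1, Mad, fell at an adjusted p under 0.05 in limma on log2(FPKM + 1), fitted to all tested genes. Among the 8580 genes tested, 39.7% were called in either direction, 21.2% higher and 18.4% lower, so 4 calls among 10 genes are about the share found over all genes. The call together with a rise of at least 2-fold was met by 3 of the 10 genes and by 16.6% of all tested genes, and with a rise of at least 4-fold by the same 3 genes and by 11.7% of all tested genes. The median change of the 10 genes was 0.04 on the log2 scale, beside -0.04 over all tested genes. All 10 had at least 1 FPKM in every library, so none passed the filter on low values through 1 genotype alone. The libraries of the genotypes did not overlap for 8 of the 10 genes, 5 higher and 3 lower in wh7, and for 77.0% of all tested genes (35.7% higher and 41.3% lower). The authors' deposited table marked dpp, gbb and dally as significant and higher, beside 7.23% of all genes listed (9.50% in either direction). The 17475 genes listed include many too low to be tested here, so this share is not directly comparable with the 10 genes, all of them tested. For a single gene the exact permutation test (two-sided) of 2 wh7 and 2 control libraries cannot go below p = 0.333, so the limma p-values depend on borrowing the spread from other genes. RNA came from whole ovaries, so fewer or more cells of a type and less or more RNA per cell cannot be told apart.

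**Figure D1:**
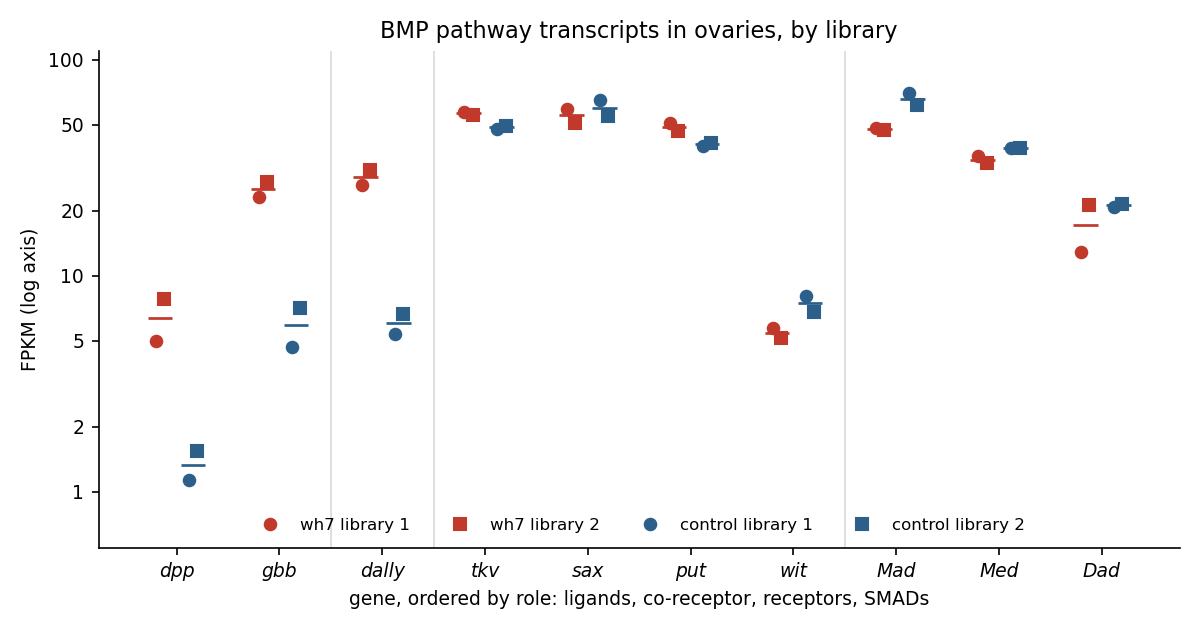
FPKM (log axis) of the 10 pathway genes in each library, wh7 in red and control in blue, circles for library 1 and squares for library 2, with short lines at the group means. dpp, gbb and dally stand apart between genotypes, with wh7 means of 6.39, 25.1 and 28.5 FPKM and control means of 1.33, 5.89 and 6.03 FPKM. The other 7 genes differ less, among them Mad, which was called lower (47.8 FPKM in wh7, 66.1 FPKM in controls).

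dpp (FBgn0000490) encodes the fly counterpart of BMP2/4, the main ligand that maintains germline stem cells. On the BDGP6 build the gene spans 2428372 to 2459823 on the plus strand of 2L. Its level was 4.99 and 7.80 FPKM in wh7 and 1.13 and 1.54 FPKM in controls. Both wh7 libraries were above both controls, although the wh7 libraries also differed from each other, the higher being 1.56 times the lower. The mean of 6.39 ± 1.99 FPKM in wh7 was 4.80-fold that of 1.33 ± 0.288 FPKM in controls (SD, n = 2 each), a change of 1.64 ± 0.254 (SE) on the log2(FPKM + 1) scale, which understates the change of low genes (limma adjusted p = 0.0132). The call was lost without control 1 (change 1.52, adjusted p = 0.0809) and after quantile normalization (change 0.65, adjusted p = 0.102). With annotated transcripts of 3177 to 4230 bases, the control values stood for about 67 to 119 reads and the wh7 values for about 293 to 589 reads. dpp had the lowest control level of the 10 genes, and 56.6% of all genes listed had a lower control mean.

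gbb (FBgn0024234), glass bottom boat, encodes a second BMP ligand, which can pair with Dpp and is likewise needed in the niche. It is a compact gene on the plus strand of 2R at 23851562 to 23853247. Its level was 23.1 and 27.0 FPKM in wh7, against 4.67 and 7.11 FPKM in controls. The genotypes were well separated, the lower wh7 library being above the higher control library. The wh7 mean of 25.1 ± 2.77 FPKM was 4.26-fold the control mean of 5.89 ± 1.73 FPKM (SD, n = 2 each). The change was 1.94 ± 0.218 (SE; limma adjusted p = 0.00753), and the call was lost without wh7 2 (change 1.83, adjusted p = 0.0615). Among the tested genes, 5.70% had a larger positive change than gbb. The ratio of gbb to dpp within a library was 4.64 and 3.47 in wh7 and 4.14 and 4.63 in controls, which overlap (exact permutation p = 1).

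dally (FBgn0263930) encodes a glypican, a heparan sulfate proteoglycan on the cell surface that binds BMPs and serves as a co-receptor. It lies on the plus strand of 3L at 8827505 to 8891192. It was at 26.2 and 30.8 FPKM in wh7 and at 5.40 and 6.67 FPKM in controls. The libraries fell into separate ranges by genotype, and within a genotype they differed by 1.18-fold in wh7 and by 1.24-fold in controls. The wh7 mean of 28.5 ± 3.26 FPKM was 4.73-fold the control mean of 6.03 ± 0.899 FPKM (SD, n = 2 each), and the change of 2.07 ± 0.162 (SE) had the smallest adjusted p of the 10 genes (limma adjusted p = 0.00514). The call held in every alternative fit run, with an adjusted p of 0.00381 to 0.0327. Among the tested genes, 4.81% had a larger positive change.

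**Figure D2:**
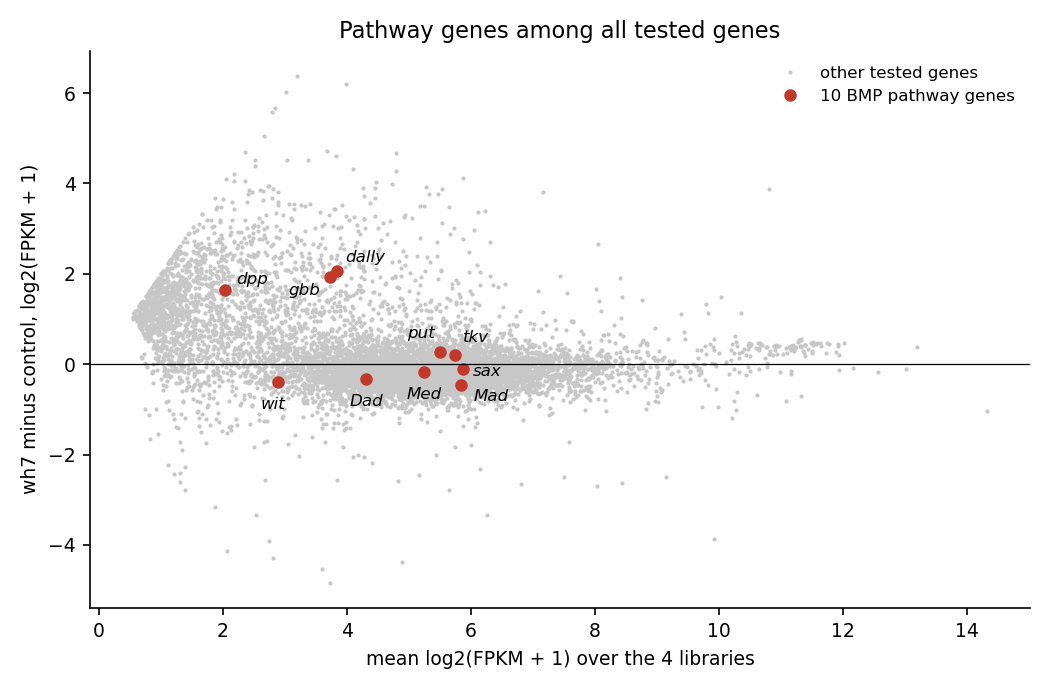
Difference of log2(FPKM + 1) between wh7 and control against the mean log2(FPKM + 1) over the 4 libraries, for 8580 tested genes (grey) with the 10 pathway genes in red. dpp, gbb and dally lie at 1.64, 1.94 and 2.07 and the other 7 between -0.46 and 0.26.

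The type I receptor genes were among the highest of the 10 and did not pass the test. tkv (FBgn0003716), thickveins, encodes the main type I receptor for Dpp. Its deposited entry spans 5216701 to 5271384 on 2L, whereas the BDGP6 annotation used here gives 5219000 to 5271384 on the minus strand. Both wh7 libraries were above both controls by a narrow margin, with means of 56.4 ± 0.919 FPKM in wh7 and 48.7 ± 1.05 FPKM in controls (SD, n = 2 each). The ratio of 1.16-fold gave a change of 0.21 (95% interval 0.0056 to 0.41) with a limma adjusted p of 0.0898, and it passed the threshold after quantile normalization (adjusted p = 0.0475). sax (FBgn0003317), saxophone, encodes the type I receptor used mostly by Gbb and lies on the plus strand of 2R at 7806484 to 7810067. It was at 59.3 and 51.0 FPKM in wh7 and at 65.4 and 54.6 FPKM in controls, and the genotypes overlapped. Its change was -0.12 (95% interval -0.46 to 0.23; limma adjusted p = 0.503), and the sign depended on control 1, without which the change was 0.010 (adjusted p = 0.968). Within a library the ratio of tkv to sax was 0.962 and 1.09 in wh7, against 0.734 and 0.906 in controls, ranges that did not overlap (exact permutation p = 0.333, the smallest possible).

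The type II receptor genes did not pass the test either, and their estimates had opposite signs. put (FBgn0003169), punt, encodes the type II receptor used in the germline and lies on the minus strand of 3R at 14619030 to 14625703. It was at 50.9 and 46.8 FPKM in wh7 and at 40.1 and 41.2 FPKM in controls. The wh7 libraries were both higher, with means of 48.9 ± 2.88 FPKM in wh7 and 40.6 ± 0.812 FPKM in controls (SD, n = 2 each), a change of 0.26 (95% interval 0.029 to 0.49; limma adjusted p = 0.0726, and 0.0451 after quantile normalization). wit (FBgn0024179), wishful thinking, encodes a type II receptor best known from motor neurons. Its deposited entry spans 4062292 to 4071717 on 3L, whereas the annotation used here gives 4064152 to 4071717 on the minus strand. wit was at 5.75 and 5.14 FPKM in wh7 and at 8.08 and 6.82 FPKM in controls. Both wh7 libraries were lower, at 73.1% of the control mean, with a change of -0.39 (95% interval -0.81 to 0.038; limma adjusted p = 0.117). After quantile normalization the change was -1.12 (adjusted p = 0.0252). The ratio of put to wit within a library was 8.85 and 9.11 in wh7 and 4.96 and 6.04 in controls, again without overlap (exact permutation p = 0.333).

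Of the SMAD genes, Mad was the only gene called. Mad (FBgn0011648), Mothers against dpp, encodes the receptor-activated SMAD of the BMP branch and lies on the minus strand of 2L at 3146056 to 3159643. It was at 48.4 and 47.3 FPKM in wh7 and at 70.4 and 61.8 FPKM in controls. Both wh7 libraries were lower, and the wh7 mean of 47.8 ± 0.781 FPKM was 72.3% of the control mean of 66.1 ± 6.13 FPKM (SD, n = 2 each). The change of -0.46 ± 0.096 (SE) had a limma adjusted p of 0.0248. The call was lost without any 1 library (adjusted p of 0.0857 with wh7 1 left out, 0.117 with wh7 2, 0.146 with control 1 and 0.0572 with control 2). In the authors' deposited table the q-value of Mad was 0.123, and that of wuho, the mutated gene, was 0.302.

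Med, Medea, encodes the co-SMAD shared by the BMP and activin branches. It was at 35.8 and 33.2 FPKM in wh7 and at 39.2 and 39.1 FPKM in controls. The genotypes did not overlap, but the change of -0.18 (95% interval -0.41 to 0.055) did not pass the test (limma adjusted p = 0.169). The deposited entry (FBgn0011655) spans 31596642 to 31616160 on 3R, whereas the annotation used here gives Med (FBgn0288966) at 31611046 to 31615375 on the plus strand, so its FPKM may cover more than the present gene model. Med also shares 331 exon bases with CycG on the opposite strand, a gene at 353 and 367 FPKM in wh7 and 314 and 350 FPKM in controls, and no source used here tells if reads were counted by strand. The ratio of Mad to Med within a library was 1.35 and 1.43 in wh7 and 1.80 and 1.58 in controls, without overlap (exact permutation p = 0.333).

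Dad (FBgn0020493), Daughters against dpp, encodes the inhibitory SMAD, which is itself induced by BMP signalling and is widely used as a reporter of it in germline stem cells. It lies on the plus strand of 3R at 17054007 to 17070408. It was at 12.9 and 21.3 FPKM in wh7 and at 20.8 and 21.6 FPKM in controls. Only wh7 1 was low, while wh7 2 lay between the controls, so the genotypes overlapped. The change of -0.33 had a wide interval (95% interval -0.98 to 0.31; limma adjusted p = 0.324) and was 0.0094 without wh7 1 (adjusted p = 0.960). The 2 wh7 libraries differed 1.65-fold for Dad, the largest spread between libraries of a genotype among the 10 genes, whereas the controls differed 1.04-fold. The ratio of Dad to Mad was 0.267 and 0.451 in wh7 and 0.295 and 0.349 in controls, which overlap (exact permutation p = 1).

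**Figure D3:**
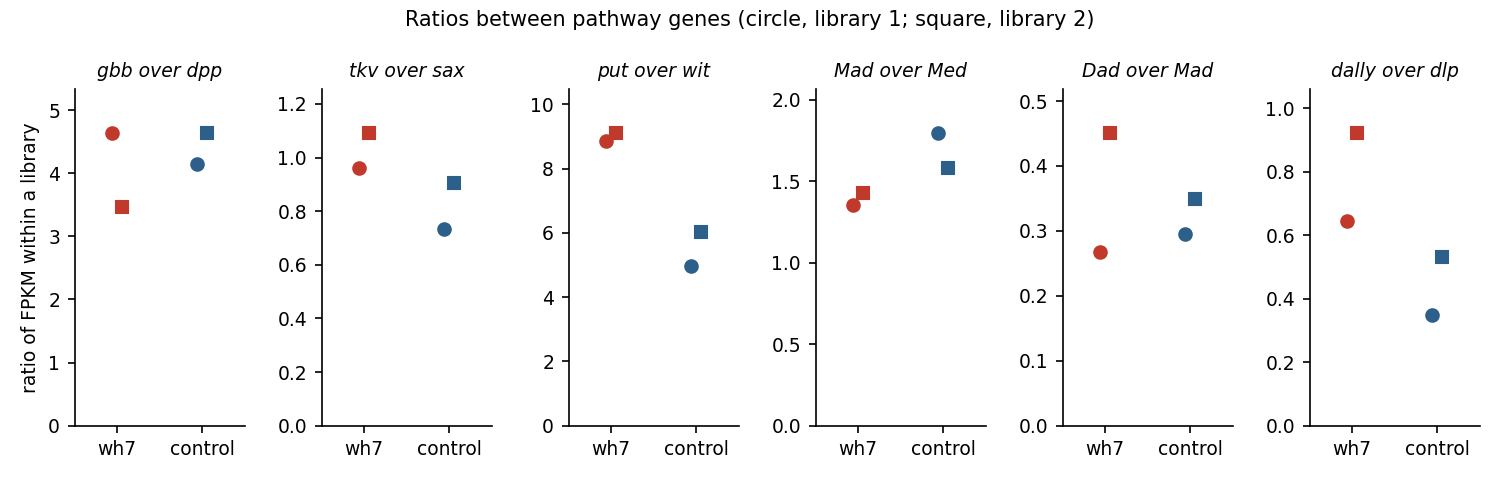
Ratio of the FPKM of 2 genes within each library, wh7 in red and control in blue, circles for library 1 and squares for library 2, each panel from 0. Ratios of gbb to dpp and of Dad to Mad overlap between genotypes, while put over wit is higher (8.85 and 9.11 in wh7, 4.96 and 6.04 in controls) and Mad over Med lower in wh7.

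The order of the levels differed between genotypes. In wh7 the means ran from tkv (56.4 FPKM) through sax, put, Mad (47.8 FPKM), Med, dally, gbb, Dad and dpp (6.39 FPKM) to wit (5.44 FPKM). Of these neighbours tkv and sax, put and Mad, dally and gbb, and dpp and wit overlapped in their libraries. In controls the order was Mad (66.1 FPKM), sax (60.0 FPKM), tkv, put, Med, Dad (21.2 FPKM), wit (7.45 FPKM), dally, gbb and dpp (1.33 FPKM). Mad and sax, and dally and gbb, overlapped there. By their means dally and gbb lay above Dad and wit in wh7 and below both in controls, although in control 2 gbb (7.11 FPKM) was above wit (6.82 FPKM).

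The genes whose levels over the 4 libraries were nearest to each of the 10 were found by Euclidean distance on the log2(FPKM + 1) scale among all tested genes. The nearest to dally was Lsd-1 (distance 0.0743), at 25.6 and 30.0 FPKM in wh7 and 5.21 and 6.86 FPKM in controls. The nearest to gbb was mew, an integrin alpha subunit gene (distance 0.127), at 24.4 and 25.4 FPKM in wh7 and 4.77 and 6.86 FPKM in controls. The nearest to dpp was CG15422 (distance 0.0972), at 5.14 and 7.55 FPKM in wh7 and 1.18 and 1.41 FPKM in controls. Each of these 3 genes was likewise higher in both wh7 libraries, as the choice by distance implies. The genes nearest to the receptor genes were ZnT63C for tkv, Ykt6 for sax, GILT2 for put and CG7616 for wit, and to the SMAD genes CG15514 for Mad, CG16890 for Med and GstZ1 for Dad. Dad had the largest distance to its nearest gene, 0.212.

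Other genes of the pathway were taken from lists by role. Of 48 such genes that the table holds, 34 were expressed highly enough to be tested, and 9 of these rose (26.5%, beside 21.2% of all tested genes) and 5 fell (14.7%, beside 18.4%). The rises include bgcn, which passed the filter on low values only through the wh7 libraries and so had to differ. The median change of the 34 genes was 0.07. Extracellular modulators of BMPs held 4 rises and 0 falls among 8 tested genes. nord, which encodes a secreted modulator of BMP signalling, was at 14.3 ± 1.74 FPKM in wh7 and 1.87 ± 0.592 FPKM in controls, and dlp, the second glypican gene, at 37.0 ± 5.08 and 13.99 ± 2.07 FPKM (SD, n = 2 each). Their limma adjusted p were 0.00545 and 0.00808, and both calls held in every alternative fit run. Within a library the ratio of dally to dlp was 0.646 and 0.923 in wh7 and 0.349 and 0.533 in controls. cv-2, crossveinless 2, which encodes a BMP-binding protein, was at 4.66 ± 1.29 FPKM in wh7 and 1.03 ± 0.371 FPKM in controls (limma adjusted p = 0.0167). Its call was lost without control 1 (adjusted p = 0.0982), without wh7 2 (0.0690) and after quantile normalization (0.213). sog, which encodes the chordin-like antagonist, was at 3.41 and 5.39 FPKM in wh7 and 1.65 and 1.74 FPKM in controls (limma adjusted p = 0.0338), and its direction reversed to -0.083 after quantile normalization. The sog call was also lost with no filter on low values (adjusted p = 0.0794), without control 1 (0.154), without control 2 (0.109) and without wh7 2 (0.0696). Of the 4 modulators too low to be tested, tsg and srw were listed at 0 in all 4 libraries.

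Among the other ligands of the family, daw, which encodes an activin-like ligand, was at 9.63 ± 0.695 FPKM in wh7 and 1.51 ± 1.31 FPKM in controls (limma adjusted p = 0.0185). The daw call was lost with no filter (adjusted p = 0.0510) and when wh7 1 (0.0927) or wh7 2 (0.106) was left out. myo, myoglianin, likewise of the activin branch, was at 47.5 ± 5.51 FPKM in wh7 and 34.0 ± 1.68 FPKM in controls (limma adjusted p = 0.0353), a call lost without any 1 library (0.0514 to 0.135), with no filter and without the mean-variance trend. The activin type I receptor gene babo was at 46.2 ± 0.428 FPKM in wh7 and 40.1 ± 0.650 FPKM in controls, and its SMAD gene Smox at 68.0 ± 0.977 and 57.0 ± 5.64 FPKM (SD, n = 2 each). Neither passed the test (limma adjusted p = 0.104 and 0.0961). Heparan sulfate enzymes, which build the sugar chains of glypicans, held 0 rises and 2 falls among 7 tested genes. These were Ext2, also called sotv, at 9.54 ± 0.526 FPKM in wh7 and 15.9 ± 0.777 FPKM in controls, and Hs2st at 24.9 ± 2.67 and 38.1 ± 1.52 FPKM (limma adjusted p = 0.0192 and 0.0205). The Ext2 call was lost without any 1 library (adjusted p = 0.0636 to 0.118). The Hs2st call was lost without control 1 (0.125), control 2 (0.0729) or wh7 2 (0.0855). Of the 2 tested genes for furin-like convertases, which cleave BMP precursors, Fur2 fell, at a mean of 81.0 FPKM in wh7 and 105.7 FPKM in controls (limma adjusted p = 0.0440), and the call was lost without any 1 library (0.0674 to 0.175) and in 5 other fits.

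Of 10 intracellular modulators 2 rose and 2 fell. nej, which encodes the coactivator CBP that acts with Mad, was at 34.8 ± 1.59 FPKM in wh7 and 68.1 ± 5.94 FPKM in controls (SD, n = 2 each; limma adjusted p = 0.00688), and its call held in every alternative fit run. Smurf, which encodes a ubiquitin ligase that limits the pathway, was at 45.9 ± 3.43 FPKM in wh7 and 70.4 ± 7.06 FPKM in controls (limma adjusted p = 0.0183; 0.111 without control 1, 0.0553 without wh7 1 and 0.0975 without wh7 2). brk, brinker, encodes a repressor of Dpp target genes that is itself repressed by Dpp signalling. It was at 8.24 ± 0.873 FPKM in wh7 and 2.48 ± 0.792 FPKM in controls (limma adjusted p = 0.0134; 0.0649 without control 1, 0.0633 without wh7 1, 0.0694 without wh7 2 and 0.0979 after quantile normalization). The authors' deposited table merges brk into a longer locus. Snoo, the Ski-related cofactor gene, was at 8.77 ± 0.370 FPKM in wh7 and 4.58 ± 0.640 FPKM in controls (limma adjusted p = 0.0219), a call lost without any 1 library (at least 0.0588), with no filter (0.0611) and after quantile normalization (0.515).

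bam, the differentiation gene that the SMADs repress in germline stem cells, was at 29.2 and 23.7 FPKM in wh7 and at 27.3 and 22.6 FPKM in controls. The genotypes overlapped, and the change was 0.08 (limma adjusted p = 0.709). bgcn, whose protein acts with Bam, was at 4.95 and 4.57 FPKM in wh7 and at 0.146 and 0.348 FPKM in controls (limma adjusted p = 0.00545). bgcn passed the filter on low values only through the wh7 libraries, so it had to differ, and its q-value in the authors' deposited table was 0.248. There wuho, the mutated gene, was not marked significant either (q-value 0.302). The other 7 target genes listed, which are known from the wing or the embryo, were under 1 FPKM in all 4 libraries and were not tested.

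**Figure D4:**
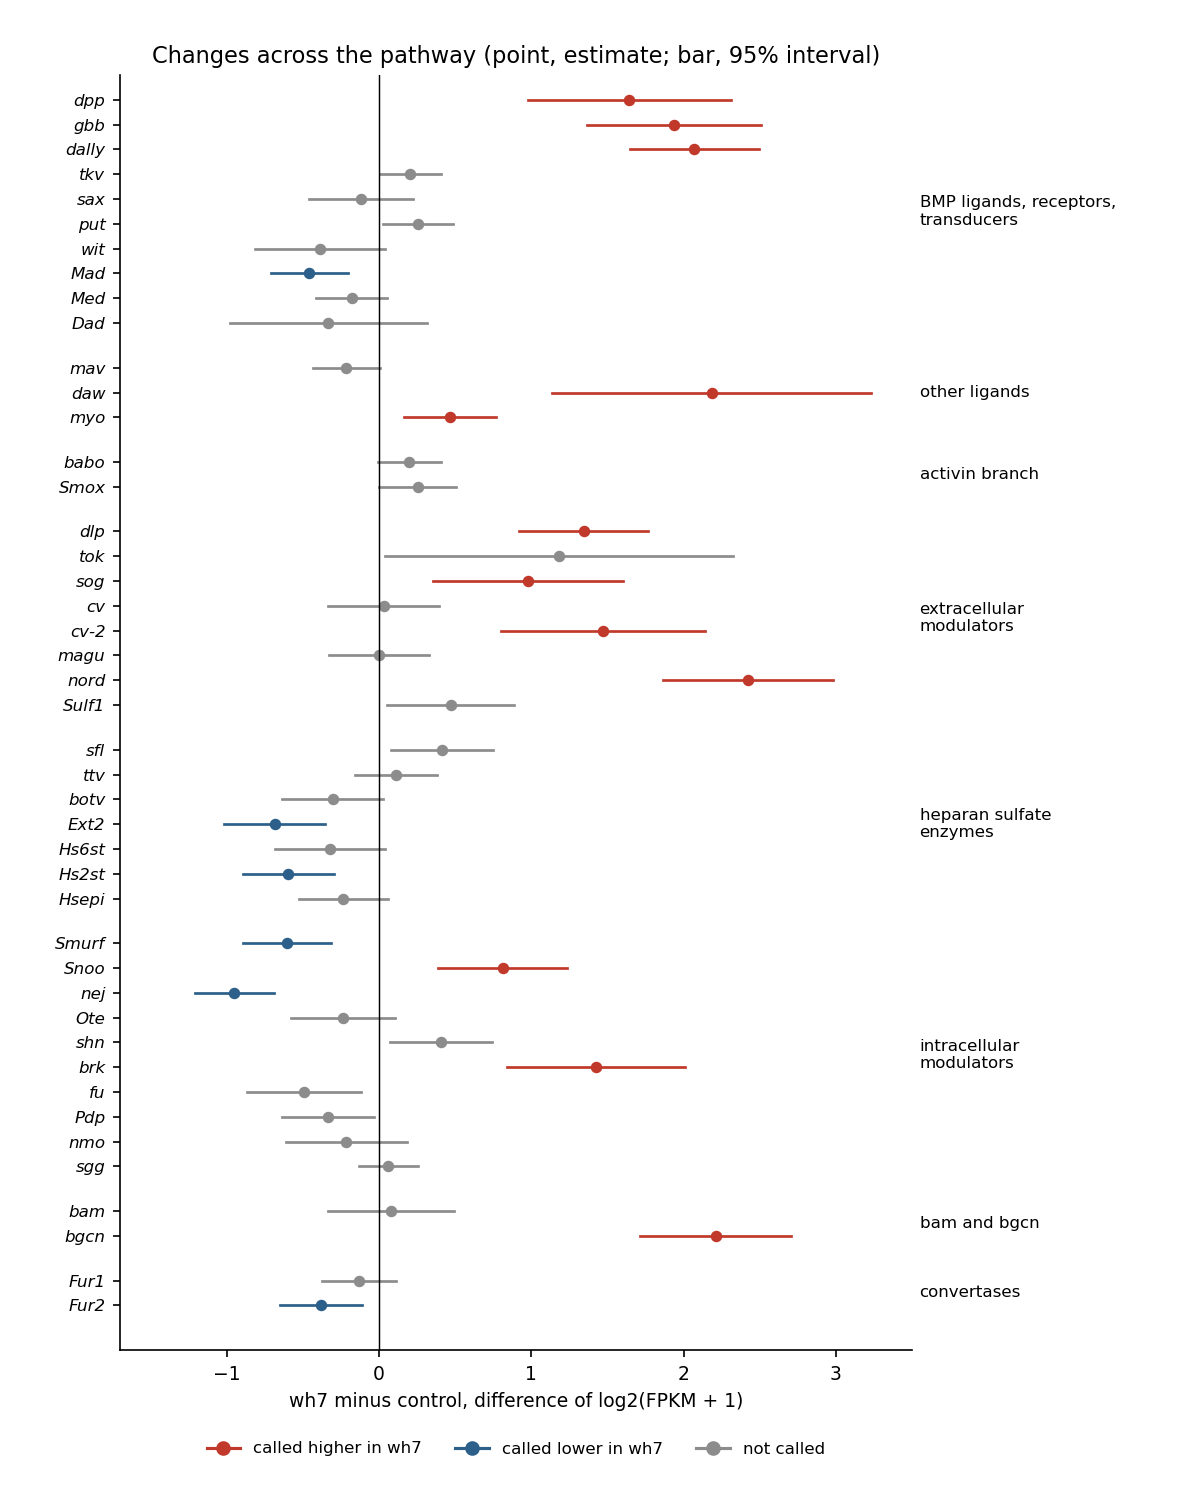
Change between wh7 and control on the log2(FPKM + 1) scale (point) with its 95% interval (bar) for the 10 pathway genes and 34 other tested genes by role, in red where called higher, in blue where called lower and in grey where not called. dpp, gbb and dally lie beside nord, daw, dlp, cv-2 and brk among the rises, and Mad beside nej, Smurf, Ext2 and Hs2st among the falls.

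Markers of several cell types differed between the same libraries. Some markers were under 1 FPKM in both controls and could be tested only because of their wh7 values, which favours rises, so their number is given for each list. Over all tested genes 21.2% rose and 18.4% fell. The summed level of 13 muscle sheath markers was 1760 and 2847 FPKM in wh7 and 417 and 453 FPKM in controls, and 12 of 13 tested genes rose, 1 of these (sls) tested only through wh7. The 9 hemocyte markers summed to 204 and 268 FPKM in wh7 and 33.2 and 50.4 FPKM in controls, with 5 of 6 tested genes higher, 2 of these (Hml and Sr-CI) tested only through wh7, and with NimC1 and He listed at 0 in both controls. The 7 fat body markers summed to 62.2 and 57.6 FPKM in wh7 and 7.21 and 8.23 FPKM in controls, with 3 of 3 tested genes higher, 1 of these (Tsf1) tested only through wh7, and with Fbp1, Fbp2 and to at 0 in both controls. The 7 neural markers summed to 12.8 and 13.7 FPKM in wh7 and 2.58 and 3.35 FPKM in controls, with 3 of 3 tested genes higher, 1 of these (nrv3) tested only through wh7. Somatic cells of the ovary itself were represented by 13 follicle cell markers (3080 and 3789 FPKM in wh7, 1138 and 2621 FPKM in controls) and by 16 niche and escort cell markers (374 and 427 FPKM in wh7, 235 and 238 FPKM in controls). Of the follicle cell markers 8 of 12 tested genes rose and 1 fell, cad (mean 117 FPKM in wh7 and 187 FPKM in controls). Of the niche and escort cell markers 9 of 11 tested genes rose and 1 fell, Dl (mean 26.9 FPKM in wh7 and 38.8 FPKM in controls). The Dl call was lost with no filter, after either scaling and without the mean-variance trend. However, 5 of the 11 (bab1, bab2, Wnt4, Wnt2 and os) were tested only through wh7, and 4 of those 5 were among the rises. Among 14 germline markers 2 rose and 4 fell. Gut markers summed to 2.39 and 4.89 FPKM in wh7 and 0.0866 and 0.448 FPKM in controls, and tracheal markers to 2.96 and 5.96 FPKM in wh7 and 1.16 and 1.10 FPKM in controls. Only Npc2f of these 2 lists was tested, through wh7 alone, and it was called higher (2.23 and 4.17 FPKM in wh7, 0.0866 and 0.448 FPKM in controls, limma adjusted p = 0.0189). This call was lost after quantile normalization and when either control or wh7 2 was left out. The gut markers alphaTry, betaTry, Amy-p and Jon65Aiv and the tracheal marker dys were at 0 in both controls, and betaTry was at 0 in all 4 libraries.

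The highest markers of these lists are given as mean FPKM ± SD (n = 2 each) with the limma adjusted p. Among muscle markers Act57B, a muscle actin gene, was at 575 ± 289 in wh7 and 37.9 ± 6.42 in controls (adjusted p = 0.00607), and the tropomyosin gene Tm1 at 405 ± 49.5 and 314 ± 4.22 was not called (0.0552). Of the hemocyte markers the scavenger receptor gene crq was at 101 ± 4.10 in wh7 and 10.5 ± 5.38 in controls (0.00679, but 0.0573 without wh7 2) and vir-1 at 47.2 ± 20.4 and 8.79 ± 0.867 (0.0110, but 0.0649 without control 1). For the germline, the maternal gene osk was at 561 ± 81.1 in wh7 and 588 ± 5.39 in controls (0.656) and aret, also called bru1, at 468 ± 33.6 and 567 ± 26.0 (0.0787). Of the fat body markers Obp99a was at 38.2 ± 17.6 in wh7 and 5.38 ± 0.0477 in controls (0.00912, but 0.0550 without control 1), and the lipoprotein gene Rfabg at 8.51 ± 4.49 and 2.19 ± 0.677 lost its call (0.0384) without control 1, control 2 or wh7 2 and in 3 other fits. The neuronal gene elav was at 6.39 ± 0.349 in wh7 and 0.942 ± 0.139 in controls (0.00548), and nrv3, tested only through wh7, at 3.04 ± 0.316 and 0.836 ± 0.0926 lost its call (0.0140) without either control and after quantile normalization. Of the follicle cell markers the yolk protein genes Yp2 and Yp3 were not called (0.113 and 0.493). Among niche and escort cell markers the transcription factor gene tj was at 81.0 ± 10.3 in wh7 and 29.2 ± 9.39 in controls (0.0146, but 0.0644 without wh7 1 and 0.103 without wh7 2), and the fax call (174 ± 2.87 in wh7 and 135 ± 6.39 in controls, 0.0233) was lost without any 1 library and without the mean-variance trend.

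The means of dpp, gbb and dally in wh7 were 4.80, 4.26 and 4.73 times those in controls, beside 5.29 times for the summed muscle markers, 5.65 for hemocyte, 7.76 for fat body, 4.46 for neural, 1.83 for follicle cell, 1.69 for niche and escort cell, 0.908 for germline, 13.6 for gut and 3.96 for tracheal markers. These sums weigh abundant genes most, since Tm1 made up 72.0% of the muscle sum in controls, fax 57.1% of the niche and escort cell sum, Yp2 52.5% of the follicle cell sum and srp 50.4% of the hemocyte sum. Obp99a made up 69.7% of the fat body sum in controls. The gut sum in controls was that of Npc2f alone, a gene tested only through wh7, and no tracheal marker was tested. Gene by gene, the median ratio of wh7 to control over tested markers was 15.3 for muscle (range 1.29 to 21.7), 18.2 for hemocyte (1.25 to 44.5), 7.11 for fat body (3.89 to 91.1), 3.64 for neural (2.67 to 6.78), 3.47 for follicle cell (0.625 to 6.92), 3.41 for niche and escort cell (0.692 to 15.1) and 0.916 for germline markers (0.610 to 1.87). The ratios of dpp, gbb and dally thus lay within the ranges of all these lists but the germline list. For muscle and hemocyte markers this rests on 1 gene each, Tm1 (1.29) and srp (1.25). The next lowest were Mf (10.7) and vir-1 (5.37), above dpp, gbb and dally. In the fat body list only Rfabg (3.89) lay below them, and in the neural list only elav (6.78) lay above them. Some of these medians and ranges rest on genes tested only through wh7. The niche and escort cell median is bab1 and the highest ratio bab2, the neural median nrv3 and the highest fat body ratio Tsf1. The hemocyte median lies between crq (9.60) and Sr-CI (26.8), the latter tested only through wh7. The 6 other tested niche and escort cell genes were ptc (6.32), fng (4.94), tj (2.78), LamC (2.74), fax (1.29) and Dl (0.692). wh7 2 was 1.56 times wh7 1 for dpp, 1.17 times for gbb and 1.18 times for dally, beside 1.62 times for the summed muscle markers, 1.31 for hemocyte, 0.926 for fat body, 1.08 for neural, 1.23 for follicle cell, 1.14 for niche and escort cell, 1.08 for germline, 2.05 for gut and 2.01 for tracheal markers. The fat body ratio followed Obp99a, at 50.6 FPKM in wh7 1 and 25.8 FPKM in wh7 2. Tsf1 (5.37 and 15.1 FPKM), Rfabg (5.34 and 11.7 FPKM) and Lsp2 (0.749 and 4.99 FPKM) were higher in wh7 2. The other fat body markers, Fbp1, Fbp2 and to, were under 1 FPKM in all 4 libraries. The gut ratio rests mostly on Npc2f (2.23 and 4.17 FPKM). The part of these cell types in the levels of dpp, gbb and dally was not tested.

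**Figure D5:**
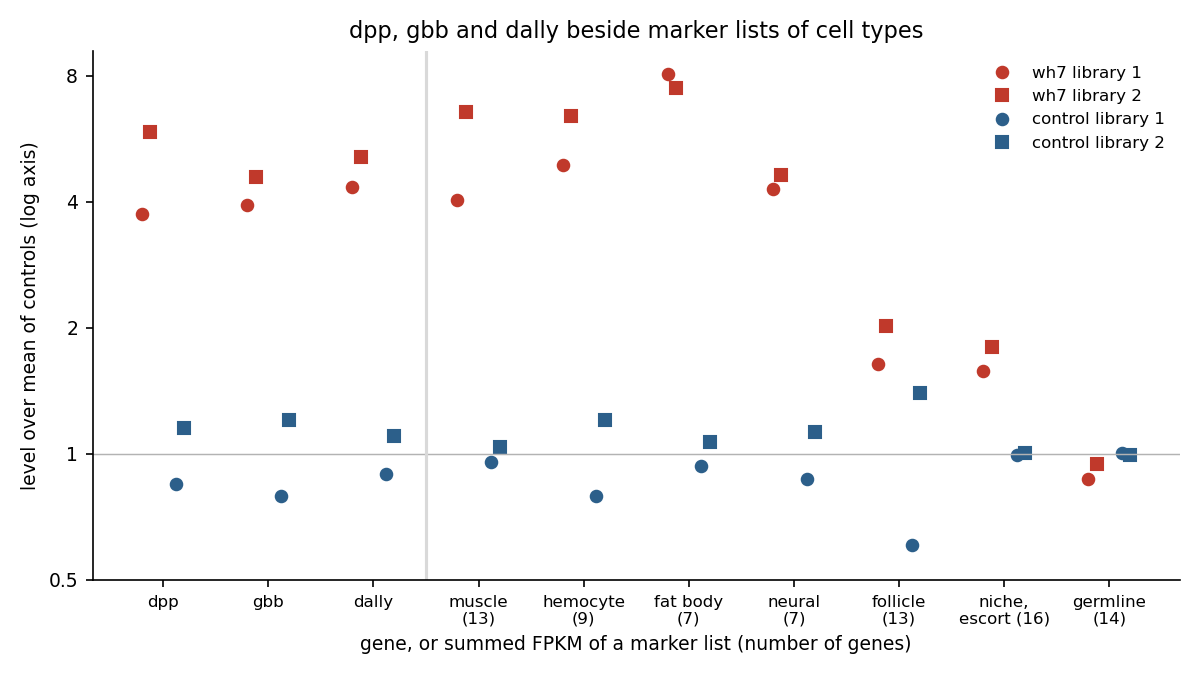
Level in each library over the mean of the controls (log axis) for dpp, gbb and dally and for the summed FPKM of marker lists, wh7 in red and control in blue, circles for library 1 and squares for library 2. The wh7 libraries lie near 4 to 6 for the 3 genes, at a mean of 5.29 for the summed muscle markers (median over genes 15.3), at 1.58 and 1.80 for the summed niche and escort cell markers (median over genes 3.41) and at 0.871 and 0.945 for germline markers. The niche and escort cell median is the ratio of bab1, a gene tested only through wh7.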

How the data were processed

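Per the labels' protocols, libraries were made with a strand-specific Agilent SureSelect kit and sequenced as 75 bp single-end reads. The submitters' processing notes name bcl2fastq 2.0, Bowtie 0.12.2 and the builds BDGP6 and mm8, with roles not given in the sources used here. Per the file headers, the authors deposited FPKM for each library and genotype, with 0.0001 in place of 0. For each gene they deposited a wh7 over control ratio, also as log2, with its p-value and its q-value. The authors also deposited enrichment tables, with the fold and the number of genes of each term. What computed the FPKM is not known here. Of the per-library columns, 0 were left out.

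Groups came from the source names. The 8580 genes that reached 1 FPKM in 2 or more libraries were tested on the log2(FPKM + 1) scale by limma 3.58.1 (R 4.3.3), using its mean-variance trend, with Benjamini-Hochberg adjustment and a threshold of 0.05. The fit was tested on simulated data. Fold changes are ratios of mean FPKM. Read numbers are approximate, from low values of genes with 1 annotated transcript. Deposited starts count from 0, so 1 was added, and 7 of the 10 loci then equalled the BDGP6 annotation. The 10 genes and the 17 lists of 148 symbols (4 matched by identifier, 1 not matched) were chosen with earlier results of these data known. Named beside the 10 genes were wuho, of each other pathway list up to 4 called genes with the largest change or the 2 with the highest level, of each marker list the 2 with the highest level, and the nearest gene to each of the 10. Genes named outside this rule were chosen after their values were seen. Alternatives were a pseudocount of 0.1, no filter or a filter of 5 FPKM, quantile or median ratio scaling, no trend, a replicate block and each library left out, with the tested genes held fixed; the genotype left with 1 library is then assumed to vary like the other.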

Additional observations from a re-analysis of the deposited data

How the results depend on the processing

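Over all genes 3403 were called, and 2441 to 3624 in the other fits that kept all 4 libraries, against 611 to 2002 when 1 library was left out. Of the 10 pathway genes 4 were called, and 2 to 3 when 1 library was left out (2 without control 1 or wh7 2), 3 with a filter of 5 FPKM, which removed dpp, and 6 after quantile normalization. With the replicate number as a block the counts were 3624 and 4. The titles number 1 library of each genotype as 2 but name no shared flies, batch or day, and same-numbered libraries did not deviate together (correlation -0.165), so the numbers were not taken as a pairing. With the numbers crossed, an alternative added after the data were seen, the block gave 2729 and 4. Calls of single genes were not listed for that fit. With 1 library left out, the direction reversed for sax without control 1 (range -0.25 to 0.010), Dad without wh7 1 (-0.67 to 0.0094), the yolk protein gene Yp3 without control 1 (-0.26 to 1.115) and osk without wh7 1 (-0.22 to 0.072). The direction of sog reversed after quantile normalization (-0.083). The ratio of gbb to dpp changed by -0.13 on the log2 scale and by 0.30 with 1 FPKM added to each value, a choice made after the data were seen. The cause of these differences was not tested. Of the 10 genes dpp had the fewest reads in controls, about 67 to 119.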

Other observations

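gbb and bgcn end 22 bases apart on opposite strands of 2R, and both were higher in wh7, gbb by 4.26-fold and bgcn with a low control level (4.76 ± 0.268 FPKM in wh7, 0.247 ± 0.143 FPKM in controls; SD, n = 2 each). On its other side CR45928, annotated as a non-coding RNA on the same strand, ends 61 bases before the start of gbb and was at 18.4 and 18.9 FPKM in wh7 and 13.99 and 14.9 FPKM in controls (limma adjusted p = 0.0649). Of the 20 genes that flank the 10 pathway genes 14 were tested, and 2 rose and 2 fell, beside 21.2% and 18.4% of all tested genes. The other riser, CG13309, lies 16239 bases from dally and was at 19.1 and 4.46 FPKM in wh7 and 0.369 and 0.535 FPKM in controls (limma adjusted p = 0.0280, lost without control 1 or control 2, with no filter and after quantile normalization, at most 0.128). CG13309, like bgcn, passed the filter on low values only through the wh7 libraries. The fallen genes were Patr-1 beside Dad and CG1792 beside Med (limma adjusted p = 0.0365 and 0.0317), both lost without any 1 library and with no filter, and for Patr-1 also after either scaling and without the trend. dib shares 400 exon bases with wit on the opposite strand and was under 1 FPKM in all 4 libraries. CR14033, which shares 158 exon bases with tkv on the opposite strand, fell to 44.5 FPKM in wh7, against 65.9 FPKM in controls (limma adjusted p = 0.0112, lost without control 1, control 2 or wh7 2, at most 0.0780), while tkv was at 56.4 and 48.7 FPKM. Whether reads of these neighbours entered each other's values was not tested.

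In the authors' deposited table of genes changed at least 2-fold, 3 of the 10 genes appear, dpp, gbb and dally, among 1589. The authors' full table lists 17475 genes, of which 9.50% were marked significant in either direction. Many of those listed are too low to be tested here, so the share is not directly comparable with the 10 genes. The authors' deposited enrichment tables have 56 terms that hold at least 1 of dpp, gbb and dally, 11 of these under a Benjamini adjusted p-value of 0.05. Growth factor activity, with 12 genes and 4.44-fold enrichment, holds dpp and gbb (the authors' Benjamini adjusted p = 0.00321). The Hippo signaling pathway, with 18 genes and 3.67-fold enrichment, holds dally (the authors' Benjamini adjusted p = 2.71e-04). Regulation of BMP signaling pathway, with 7 genes, holds dally and did not pass (the authors' Benjamini adjusted p = 0.304).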
